A study of Mus musculus with 37 samples.

Results

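The collagen genes were taken as all symbols of the deposited count table that consist of Col, a type number, the letter a and a chain number. Of 44 such symbols, 40 had a summed count of 100 or more over the 37 libraries and are the members described here, out of 25239 genes in the table. They comprise 11 fibrillar chains, 8 chains of basement membranes and 21 others. The others are 8 FACIT chains (fibril-associated collagens with interrupted triple helices), 5 beaded-filament chains of collagen VI, 2 short-chain network formers of collagen VIII, 4 transmembrane chains, and Col7a1 and Col26a1. Just inside the limit were Col6a5 with 102 and Col6a6 with 154 counts over all libraries. Just outside it were Col28a1 with 45, Col19a1 with 39, Col6a4 with 25 and Col10a1 with 2.

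Each library held bulk RNA of E10.5 mouse heart. Mothers carried Cre recombinase in 1 Isl1 allele, which leaves a single working copy. Fathers carried Stra8-iCre, which acts in male germ cells, and a conditional Nipbl Flox allele, so that sperm transmitted either Flox, described as equal to wild-type, or FIN, a null allele. The 4 genotypes are Nipbl +/+; Isl1 +/+ (wild-type, 10 libraries), Isl1 +/- (Isl1_het, 9), Nipbl +/- (Nipbl_het, 9) and Nipbl +/-; Isl1 +/- (double_het, 9). Every Isl1_het and double_het heart therefore also carried Cre expressed from the Isl1 locus. NIPBL loads cohesin onto chromosomes, and ISL1 is a transcription factor of the second heart field, whose cells build the outflow tract, the right ventricle and part of the atria. The comparisons address what loss of 1 copy of each gene, alone and together, does to gene expression in the embryonic heart.

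Collagens are secreted or membrane-anchored proteins whose chains wind into triple helices, either of 3 like chains or of different chains in a fixed stoichiometry. Fibrillar collagens assemble into the cross-banded fibrils that carry tension, collagens IV, XV and XVIII belong to the sheets under epithelium, endothelium and muscle cells, and FACITs decorate fibrils. In the embryonic heart, collagen I and III are made mainly by mesenchyme of the endocardial cushions and by cells of the epicardial lineage, and collagen IV by endocardium, myocardium and epicardium. In bulk tissue, fewer cells of a type and less RNA per cell cannot be told apart.

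Depth ranged from 23356831 to 50974736 counts per library, with a median of 36239721. A number after the letters IVF in the sample descriptions divides the libraries into 5 sets, called sets here because what the number marks is not spelled out. Set 1 held only wild-type and Isl1_het hearts (3 of each), set 2 held 9 libraries, set 5 held 14, set 6 held 7, and set 7 was a single double_het heart. The library labelled Nipbl_het replicate 2 went against its label: its Nipbl level was 72.4 CPM (counts scaled to a common library size), while the other 8 Nipbl_het hearts lay between 27.1 and 44.9 and wild-type hearts between 47.6 and 78.8. Over all libraries the fitted log2 change of Nipbl against wild-type was -0.74 ± 0.12 (SE) in Nipbl_het and -0.82 ± 0.12 in double_het. In Isl1_het it was 0.03 ± 0.11 (adjusted p = 0.972). Whether Cre from the Isl1 locus acted on the conditional Flox allele in some cells of these hearts was not tested. Isl1 was not called in Isl1_het hearts, at -0.20 ± 0.18 (adjusted p = 0.877), so its level does not check the Isl1 labels, and whether transcript of the allele with Cre is counted was not tested. Against wild-type hearts it rose in Nipbl_het, by 0.79 ± 0.19 on the log2 scale (adjusted p = 0.0252), as it did in the averaged Nipbl comparison, by 0.65 ± 0.15 (adjusted p = 0.00655), and was 0.32 ± 0.20 in double_het against wild-type (adjusted p = 0.591). The tissue label was met by the cardiomyocyte markers, whose 8 genes summed to between 27911 and 43283 CPM in every library. Of 9 markers of notochord, cartilage and sclerotome, where type II and IX collagens are abundant, 5 were at 0 in most libraries (Shh, Noto, Pax1, Pax9 and Nkx3-2), and the 9 summed to 1.92 to 6.55 CPM. The highest sum was in the library labelled Nipbl_het replicate 2. There Matn1 had 2.21 CPM and Pax9 0.683, beside at most 0.344 and 0.0999 in the other libraries, while T, Shh, Noto, Pax1 and Nkx3-2 were at 0. Of 9 liver and foregut endoderm markers Alb was at 0 in most libraries, and their sum was 2.90 to 30.2 CPM in 36 libraries and 377 CPM in Nipbl_het replicate 9, where Afp, a fetal liver and yolk sac gene, had 301 CPM.

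Collagen transcripts made up 0.403% ± 0.0879 (SD, n = 37) of all counts, from 0.226% to 0.537%. Basement membrane chains supplied 0.212% ± 0.0539, fibrillar chains 0.158% ± 0.0337 and the 21 others 0.0336% ± 0.00564. A few genes held most of these counts: Col4a1, Col18a1 and Col4a2 gave 48.0% of collagen counts, and the 10 most counted chains gave 89.6%. Across genotypes the mean share of all collagens ran from 0.378% ± 0.1003 (n = 10) in wild-type to 0.437% ± 0.0877 (n = 9) in double_het hearts, and the 4 ranges overlapped. These means are not adjusted for set, and set 1 held 3 of the wild-type hearts and no double_het heart.

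Levels of different genes were compared as CPM per kb of merged exon length. Col18a1, whose core protein carries the endostatin domain, and Col4a1, 1 of the pair of chains of the common type IV network, stood highest at 98.0 ± 16.7 and 98.0 ± 24.8 CPM per kb (mean ± SD, n = 37), and their order is within their spread. Col4a2, the partner chain of Col4a1, followed at 73.9 ± 18.7, though per kb of the longest transcript Col2a1 stood above Col4a2. Among fibrillar genes, Col2a1, best known from cartilage, led at 53.1 ± 15.2, ahead of Col3a1 of distensible tissues at 38.6 ± 8.87 and Col1a1, the major chain of collagen I, at 23.7 ± 8.96. Col5a1, which nucleates collagen I fibrils, lay at 22.8 ± 4.63, not apart from Col1a1 beyond the spread. The highest of the other chains were Col6a1 at 7.56 ± 1.71, Col13a1, a transmembrane collagen of cell contacts, at 7.43 ± 1.51, and Col23a1, another transmembrane collagen, at 5.72 ± 1.42, beside Col26a1 at 5.68 ± 0.986. The order of these depends on the length used: per kb of the longest transcript Col26a1 led them, at 16.7 ± 2.90, ahead of Col13a1 at 10.8 ± 2.21, Col6a2 at 8.77 ± 1.68 and Col6a1 at 8.08 ± 1.83. Col1a2 ranked below Col1a1, at 14.5 ± 4.78, but above it when the longest transcript served as the length, at 33.6 ± 11.1 against 26.2 ± 9.91. In all, 24 of the 40 members had at least 1 CPM per kb, and 7 stayed under 0.1: Col17a1, Col24a1, Col4a4, Col5a3, Col4a3, Col6a6 and Col6a5.

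**Figure D1:**
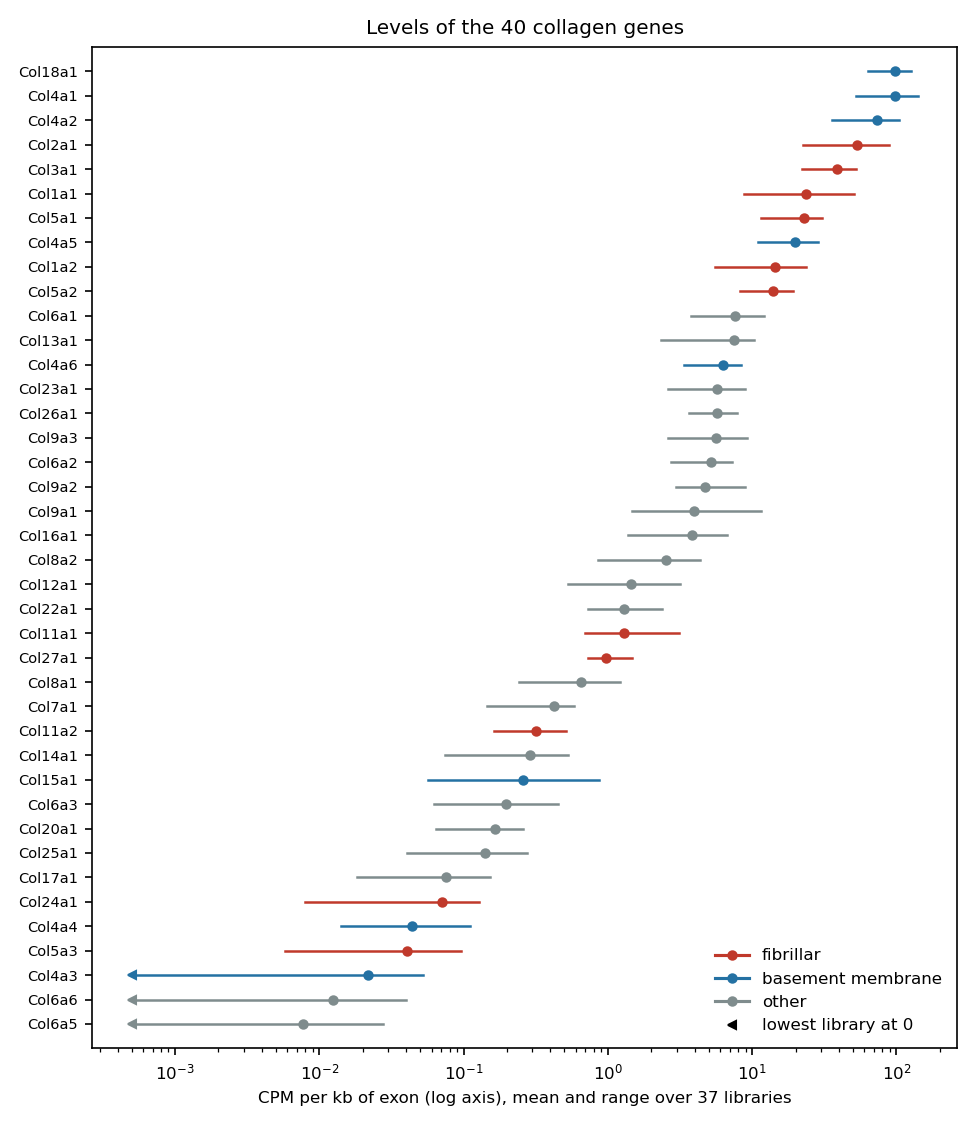
Mean level of each of the 40 collagen genes in CPM per kb of merged exon length on a log axis, with lines from the lowest to the highest of 37 libraries, coloured by class; an arrow marks a lowest library at 0. Col18a1 and Col4a1, both at 98.0 CPM per kb, lead, and Col6a5 at 0.00768 is the lowest.

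The abundant basement membrane chains overlapped between genotypes and were not called. Col4a1 had 441, 666 and 933 CPM (lowest, median and highest library) in wild-type, 428, 718 and 1003 in Isl1_het, 461, 764 and 959 in Nipbl_het and 390, 875 and 1048 in double_het hearts. Col18a1 had 446, 636 and 819 CPM in wild-type and 507, 769 and 885 in double_het hearts, and Col4a2 had 277, 452 and 618 CPM in wild-type and 247, 589 and 688 in double_het hearts. For each of these 3 genes 8 of 9 double_het hearts lay above the wild-type mean, while the ranges of all genotypes overlapped. With set in the fit, the log2 changes in double_het against wild-type were -0.03 ± 0.14 for Col4a1, -0.0131 ± 0.15 for Col4a2 and 0.13 ± 0.10 for Col18a1 (adjusted p of 0.960, 0.985 and 0.683). Of the most expressed fibrillar chains, Col2a1 had 226, 526.3 and 820 CPM in wild-type, 396, 499 and 679 in Isl1_het, 216, 444 and 602 in Nipbl_het and 209, 464 and 591 in double_het hearts. Col3a1 had 218, 391 and 436 CPM in wild-type, 225, 422 and 518 in Isl1_het, 250, 325 and 471 in Nipbl_het and 301, 426 and 473 in double_het hearts. These groups overlapped as well, and neither gene passed the threshold in a genotype comparison.

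Of the 40 members, 38 passed the low-count filter and were tested in a fit of all genes with genotype and set as factors. Col6a5 and Col6a6 did not pass it. Their counts reached at most 10 and 14 in any library, and they were at 0 in some hearts of 4 and 2 genotypes, respectively. Log2 changes below are fitted values with their SE, and a gene is called at an adjusted p under 0.05 over all 15046 genes.

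Between hearts with and without loss of 1 Nipbl copy, collagen genes of the fibrillar and other classes were called in both directions. Averaged over both Isl1 genotypes, Col1a1, Col1a2, Col6a2, Col13a1, Col23a1 and Col26a1 fell, and Col11a2 and Col16a1 rose. That is 8 of 38 tested collagens, or 21.1%, beside 4.02% of all tested genes. By class it is 3 of 11 fibrillar, 0 of 8 basement membrane and 5 of 19 other chains. DESeq2 called in addition the basement membrane chain Col4a4, whose log2 change was -0.60 with edgeR. Col11a2 and Col16a1 were not called when DESeq2's size factors scaled the libraries or when no low-count filter was set, and without set 5 Col23a1 alone stayed called. Without the set term, as with a replicate block in its place, 3 of the 8 stayed called (Col6a2 and Col26a1, lower, and Col16a1, higher), and Col8a2 and Col27a1, a fibrillar chain, were called higher. The block is the replicate number of the sample titles, which did not pair the samples, and both of these fits lack the set term. The median log2 change was -0.22 over the fibrillar, -0.11 over the basement membrane and 0.06 over the other chains, -0.10 over all 38, and 0.01 over all genes. In the single comparison of Nipbl_het with wild-type, 3 of 38 (7.89%, all lower) were called beside 1.71% of all genes. In double_het against Isl1_het, 2 of 38 (5.26%, both lower) were called beside 0.957% of all genes.

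**Figure D2:**
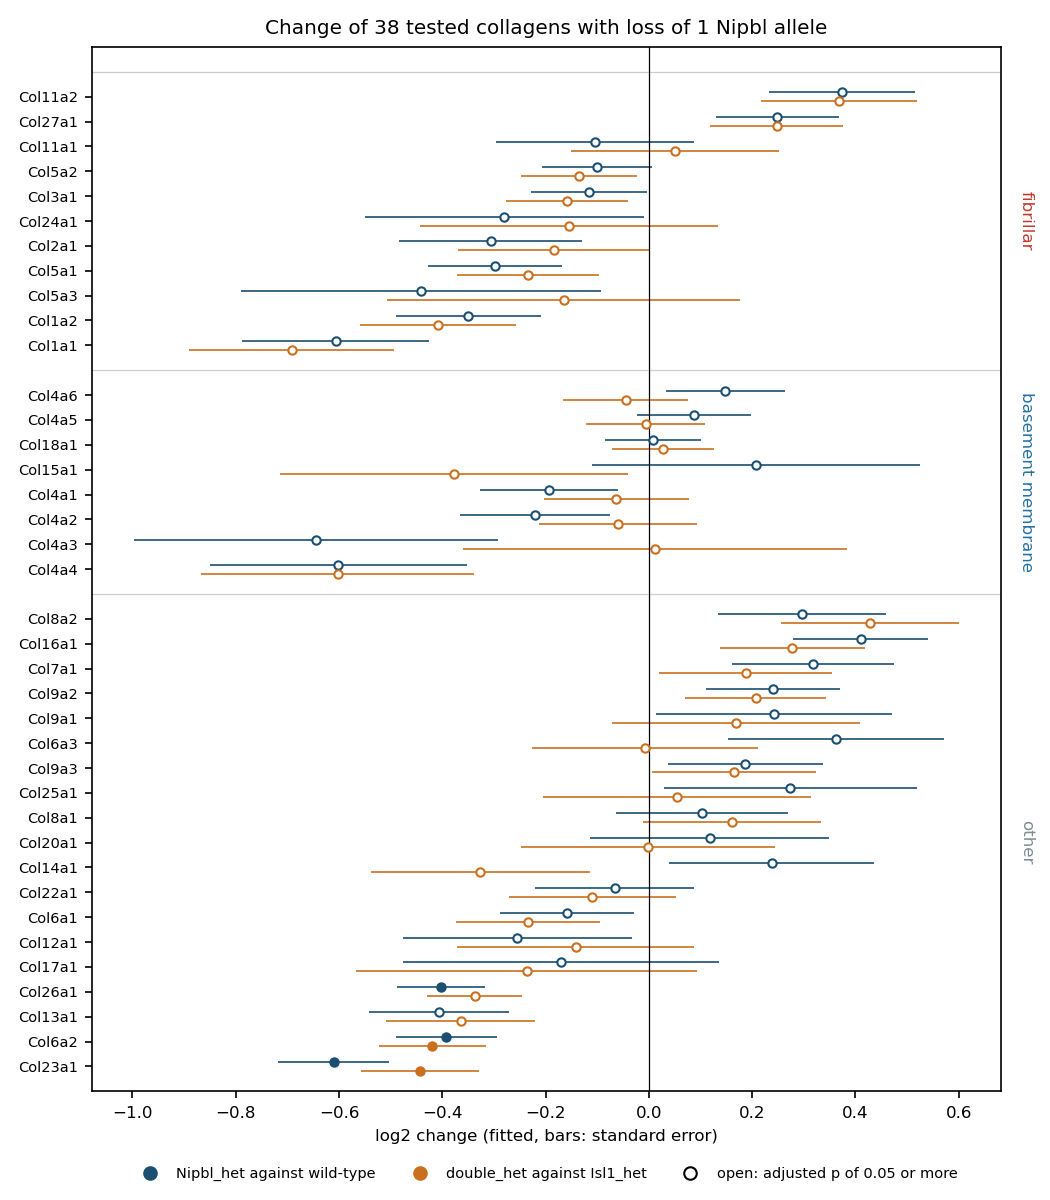
Fitted log2 change (points) with its standard error (bars) of the 38 tested collagens in Nipbl_het against wild-type (blue) and double_het against Isl1_het (orange), by class; filled points passed an adjusted p of 0.05. Col23a1 (-0.61 and -0.44) and Col6a2 (-0.39 and -0.42) were called in both comparisons.

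Col23a1 showed the lowest p of all collagens in Nipbl_het against wild-type and in the averaged Nipbl comparison. It encodes a transmembrane collagen that can be shed from the cell surface. Its level was 22.6, 38.8 and 51.1 CPM (lowest, median, highest) in wild-type, 24.5, 35.4 and 48.4 in Isl1_het, 14.9, 27.5 and 34.9 in Nipbl_het and 26.1, 30.5 and 38.6 in double_het hearts. All 9 hearts labelled Nipbl_het, replicate 2 included, lay below the wild-type mean, but the ranges overlapped. The set 1 wild-type hearts lay at 22.6 to 24.5 CPM and the other wild-type hearts from 27.8 CPM, so that both overlapped the Nipbl_het hearts. The log2 change was -0.61 ± 0.11 in Nipbl_het (adjusted p = 0.00139), -0.44 ± 0.11 in double_het against Isl1_het (adjusted p = 0.0478) and -0.53 ± 0.08 averaged (adjusted p = 0.000102). Taken set by set, mean log2 CPM of Nipbl_het minus wild-type hearts came to -0.60 in set 2, -0.80 in set 5 and -0.57 in set 6. The lowest heart was the library labelled Nipbl_het replicate 2, and without it the log2 change in Nipbl_het was -0.54 ± 0.09 (adjusted p = 0.000433). Leaving out any 1 of the 37 libraries kept the call in Nipbl_het, with log2 changes from -0.65 to -0.54. The call was lost without the set term (-0.41, adjusted p = 0.113), with the replicate block (-0.36, adjusted p = 0.157) and without set 2 (-0.61, adjusted p = 0.0626). The call in double_het against Isl1_het was kept in 5 of the 37 such fits, with adjusted p from 0.00354 to 0.172, and was lost in 7 of 11 other settings, where the change was -0.20 without the set term (adjusted p = 0.834) and -0.17 with the replicate block (adjusted p = 0.812). These settings also ended the averaged call of Col23a1 (-0.31 and -0.27, adjusted p = 0.0720 and 0.0888).

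Col26a1, an extracellular matrix gene also known as Emid2, followed. It had 33.1, 50.8 and 59.9 CPM in wild-type, 45.6, 50.2 and 64.6 in Isl1_het, 29.7, 37.9 and 46.9 in Nipbl_het and 38.5, 45.7 and 54.3 in double_het hearts. Each of the 9 hearts labelled Nipbl_het, replicate 2 included, was below the wild-type mean. The only one below every wild-type heart was the library labelled Nipbl_het replicate 2, and without it the log2 change of Col26a1 in Nipbl_het was -0.36 (adjusted p = 0.00834). Its log2 change was -0.40 ± 0.09 in Nipbl_het (adjusted p = 0.00856) and -0.37 ± 0.07 averaged (adjusted p = 0.000513), and -0.34 ± 0.09 in double_het against Isl1_het did not pass (adjusted p = 0.0697). The Nipbl_het call of Col26a1 was lost in 4 of 11 other settings: without the set term, with the replicate block, without set 5 and without set 6 (adjusted p up to 0.133).

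Col6a2, a chain of the collagen VI heterotrimer that links cells to the interstitial matrix, had 29.1, 44.1 and 54.9 CPM in wild-type, 40.01, 51.0 and 60.5 in Isl1_het, 22.9, 35.5 and 49.7 in Nipbl_het and 37.3, 39.8 and 48.9 in double_het hearts. Of the 9 double_het hearts, 8 lay below the wild-type mean, and the ranges overlapped. Its log2 change was -0.39 ± 0.10 in Nipbl_het (adjusted p = 0.0281), -0.42 ± 0.10 in double_het against Isl1_het (adjusted p = 0.0404) and -0.41 ± 0.07 averaged (adjusted p = 0.00085). The Nipbl_het call was lost without wild-type replicate 5, wild-type replicate 8 or Nipbl_het replicate 3 (adjusted p up to 0.0627), and that in double_het against Isl1_het was kept in 22 of 37 fits that each left out 1 library, with adjusted p from 0.0105 to 0.107. Both calls of Col6a2 were also lost without the set term, with the replicate block and without any of sets 1, 2, 5 and 6, and the Nipbl_het change was -0.26 with the block and -0.25 without set 6. Its partner chain Col6a1 had 16.5, 30.7 and 41.9 CPM in wild-type, 25.6, 38.1 and 42.8 in Isl1_het, 21.8, 29.4 and 52.9 in Nipbl_het and 23.0, 36.4 and 42.4 in double_het hearts. These ranges overlapped, and Col6a1 was not called.

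Both chains of collagen I fell in the averaged Nipbl comparison. Col1a1 had 57.3, 173 and 331 CPM in wild-type, 107, 213 and 249 in Isl1_het, 61.1, 118 and 221 in Nipbl_het and 108, 140 and 198 in double_het hearts. Of the hearts labelled Nipbl_het, replicate 2 included, 8 of 9 lay below the wild-type mean, and of the double_het hearts 7 of 9. The averaged log2 change was -0.65 ± 0.14 (adjusted p = 0.00449), and the call was lost without the set term (-0.40, adjusted p = 0.134), with the replicate block (-0.31, adjusted p = 0.199) and without set 5 (-0.73, adjusted p = 0.0956). It was made of -0.61 ± 0.18 in Nipbl_het (adjusted p = 0.0781) and -0.69 ± 0.20 in double_het against Isl1_het (adjusted p = 0.102). DESeq2 called Col1a1 in both, as did edgeR without Nipbl_het replicate 9 (adjusted p = 0.0133 and 0.0436, the lowest of ranges that reached 0.190 and 0.189). Nipbl_het replicate 9 was also the library with 377 CPM of summed liver and foregut endoderm markers, beside at most 30.2 in the others, and the part of this in its collagen I level was not tested. Within sets 2, 5 and 6, Nipbl_het differed from wild-type by -0.21, -0.67 and -1.31 in mean log2 CPM of Col1a1. These values rest on 2 against 3, 4 against 2 and 3 against 2 hearts. In set 6, 1 of the 2 wild-type hearts was replicate 6, the highest wild-type heart at 331 CPM. Col1a2, the second chain of the collagen I trimer, had 68.9, 191 and 275 CPM in wild-type, 91.3, 230 and 295 in Isl1_het, 101, 133 and 259 in Nipbl_het and 145, 196 and 233 in double_het hearts. Its averaged log2 change was -0.38 ± 0.11 (adjusted p = 0.0379), kept in 23 of 37 fits without 1 library (adjusted p from 0.00351 to 0.0693). This call was lost in 6 of 11 other settings, and the change of Col1a2 was -0.12 without the set term (adjusted p = 0.656) and -0.0112 with the replicate block (adjusted p = 0.958). Against wild-type, double_het hearts did not differ detectably in Col1a2, at -0.06 ± 0.15 (adjusted p = 0.927).

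Col13a1 had 25.1, 39.8 and 47.3 CPM in wild-type, 28.2, 36.2 and 46.1 in Isl1_het, 10.7, 33.8 and 37.3 in Nipbl_het and 22.9, 31.7 and 38.5 in double_het hearts. All 9 hearts labelled Nipbl_het, replicate 2 included, and 8 of 9 double_het hearts lay below the wild-type mean. The averaged log2 change was -0.39 ± 0.10 (adjusted p = 0.0258), and it did not pass without Isl1_het replicate 6 (adjusted p = 0.0748, with a range of 0.000428 to 0.0748 over the 37 libraries left out), nor in 5 of 11 other settings (up to 0.189), with -0.25 without the set term and -0.23 with the replicate block. The library labelled Nipbl_het replicate 2 was the one at 10.7 CPM. Without it the log2 change of Col13a1 in Nipbl_het was -0.30 ± 0.08, smaller than -0.41 ± 0.14 with it, but past the threshold (adjusted p = 0.0371).

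The chains that rose were Col11a2, Col16a1 and, in double_het hearts, Col8a2. Col11a2 encodes a minor fibrillar chain that is built into type II fibrils. It had 1.64, 1.81 and 2.39 CPM in wild-type, 1.55, 2.11 and 2.86 in Isl1_het, 1.12, 2.07 and 3.54 in Nipbl_het and 1.96, 2.45 and 3.10 in double_het hearts, and all 9 double_het hearts exceeded the wild-type mean. The heart at 1.12 CPM was the library labelled Nipbl_het replicate 2. Its averaged log2 change was 0.37 ± 0.11 (adjusted p = 0.0471), a call kept in 6 of 37 fits without 1 library, with adjusted p from 0.00296 to 0.112, and in 2 of 11 other settings, with 0.24 without the set term and 0.22 with the replicate block (adjusted p = 0.172 and 0.215). Col16a1 encodes a FACIT found beside fibrils and microfibrils. It had 9.32, 21.3 and 28.8 CPM in wild-type, 13.5, 24.5 and 30.5 in Isl1_het, 22.1, 25.8 and 44.95 in Nipbl_het and 22.4, 31.1 and 39.5 in double_het hearts. Every heart labelled Nipbl_het, replicate 2 included, and every double_het heart was above the wild-type mean. Of the 9 double_het hearts, 6 were above every wild-type heart. The Nipbl_het heart at 44.95 CPM was the library labelled replicate 2, and the other 8 lay between 22.1 and 37.9. The averaged log2 change of Col16a1 was 0.34 ± 0.10 (adjusted p = 0.046), a call kept in 13 of 37 fits without 1 library (adjusted p from 0.0209 to 0.0948) and in 4 of 11 other settings, and the change was 0.58 with the replicate block. The 3 set 1 wild-type hearts, at 9.32 to 16.0 CPM, held the lowest wild-type levels of Col16a1, and set 1 held no heart with a lost Nipbl copy.

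Hearts lacking 1 copy of both genes, compared with wild-type, had 2 of 38 collagens called (5.26%), both higher, beside 2.6% of all genes. Col8a2, a chain of the short-chain collagen that forms hexagonal lattices in vessels and cornea, had 3.92, 9.71 and 11.5 CPM in wild-type, 3.86, 10.8 and 12.6 in Isl1_het, 5.11, 13.0 and 16.4 in Nipbl_het and 10.8, 16.3 and 19.5 in double_het hearts. Of the 9 double_het hearts, 8 lay above every wild-type heart. The log2 change was 0.75 ± 0.17 (adjusted p = 0.0103), a rise of 67.6% on the linear scale, and it stayed called with any 1 library left out (0.69 to 0.80). Within sets 2, 5 and 6 the difference in mean log2 CPM was 0.66, 0.73 and 0.40, the last from a single double_het heart. Col16a1 changed by 0.55 ± 0.14 (adjusted p = 0.0224), with 0.56, 0.51 and 0.42 within sets 2, 5 and 6, and the call was lost without double_het replicate 4 or 6 (adjusted p up to 0.0554). Both calls were lost without set 2 and without set 5, and that of Col16a1 also without set 1 and without set 6. The partner of Col8a2, Col8a1, had 1.91, 4.56 and 7.29 CPM in wild-type, 3.18, 4.63 and 5.98 in Isl1_het, 3.23, 5.12 and 6.94 in Nipbl_het and 2.45, 5.75 and 9.49 in double_het hearts, overlapping in all, and was not called.

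**Figure D3:**
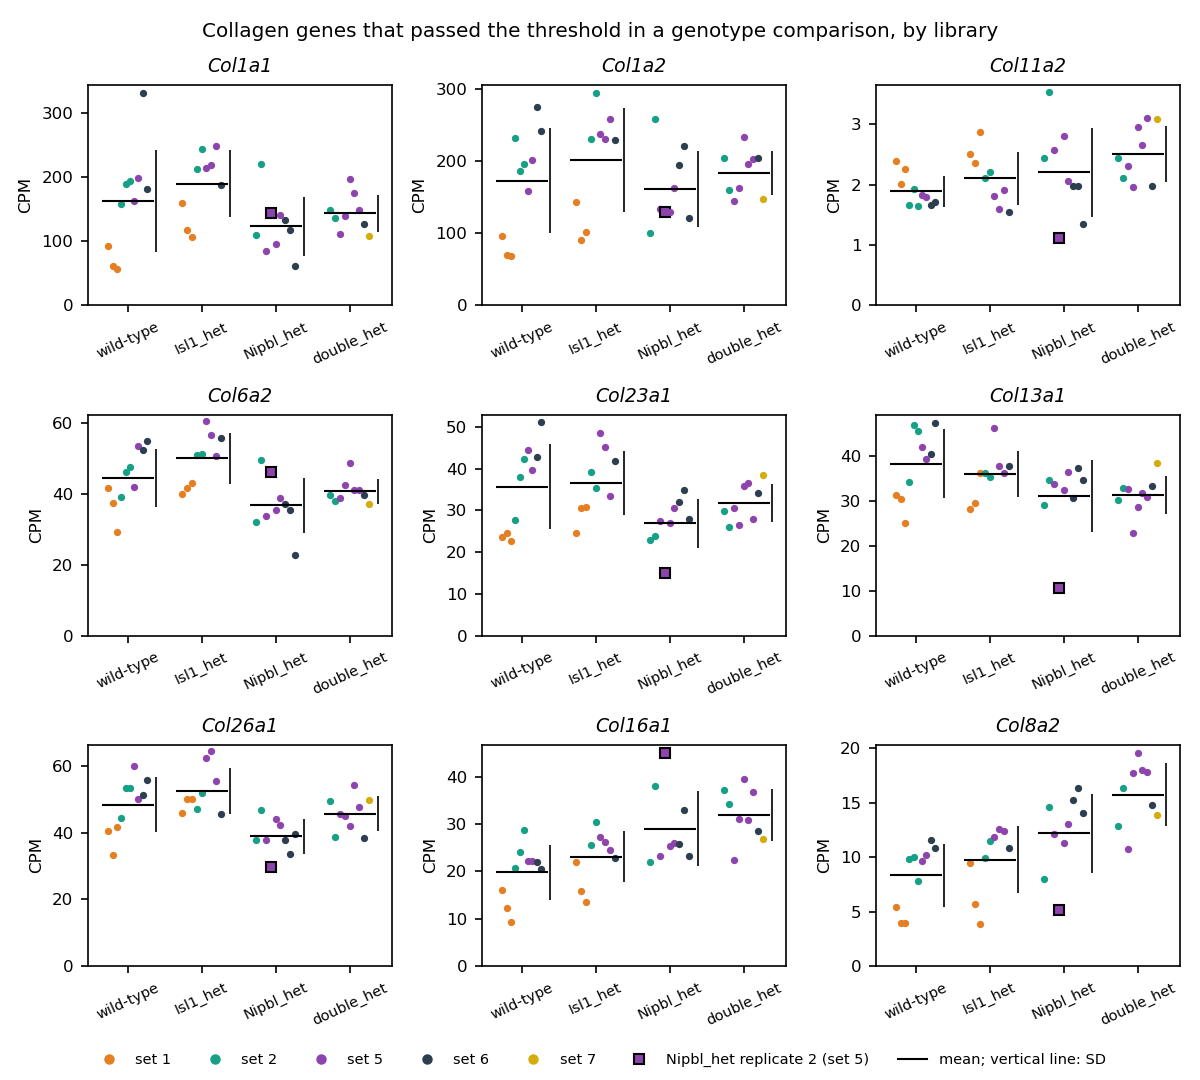
CPM of the 9 collagens called in a genotype comparison, 1 point per library coloured by set, with the mean and SD of each genotype; the square marks the library labelled Nipbl_het replicate 2. Set 1 hearts lie at the low end for Col1a1, Col1a2, Col23a1, Col16a1 and Col8a2, and 8 of 9 double_het hearts lie above every wild-type heart for Col8a2.

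Loss of 1 Isl1 copy alone called no collagen. In Isl1_het against wild-type, 0 of 38 passed, as did 0% of all genes with edgeR, and DESeq2 called 0 collagens and 11 genes. At an unadjusted p under 0.05 there were 5 collagens, all higher, beside 3.31% of all genes that were higher at that level. They were Col1a2 (log2 change 0.35 ± 0.14), Col3a1, Col20a1, Col16a1 and Col14a1, with adjusted p from 0.769. Log2 changes were above 0 for 30 of the 38, beside 48.8% of all genes, with a median of 0.12. In the same comparison 7 of 8 cardiomyocyte markers lay below 0 (median -0.19). Above 0 lay 8 of 8 red cell, 7 of 8 endothelial and endocardial, 5 of 7 epicardial and 7 of 9 cushion mesenchyme markers (medians 0.58, 0.11, 0.20 and 0.08). None of these markers was called, and their part in the collagen values was not tested. Averaged over both Nipbl genotypes, 0 of 38 passed beside 0.173% of all genes, and DESeq2 also called 0 collagens. At an unadjusted p under 0.05 there were 10 collagens, all higher, beside 6.17% of all genes. The smallest p was that of Col8a2, at 0.38 ± 0.12 (adjusted p = 0.201), before Col1a2 at 0.32 ± 0.10 (adjusted p = 0.222), which passed at an adjusted p of 0.0491 without Nipbl_het replicate 9 (0.0491 to 0.362 over the libraries left out).

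Double_het and Nipbl_het hearts differed in no collagen past the threshold: 0 of 38, beside 0% of all genes with edgeR, and 0 of both with DESeq2. At an unadjusted p under 0.05 there were 3, all higher in double_het, beside 3.44% of all genes: Col8a2 (0.45 ± 0.17), Col23a1 (0.26 ± 0.11) and Col26a1 (0.19 ± 0.09), with adjusted p from 0.489. The interaction, which asks whether double_het departs from the sum of both single changes on the log2 scale, called 0 of 38 and 0% of all genes with edgeR and 0 with DESeq2, and no collagen reached an unadjusted p under 0.05, beside 2.73% of all genes. Col14a1, a FACIT of fibril surfaces, came nearest at -0.56 ± 0.28 (p = 0.0501). For Col23a1 the interaction was 0.17 ± 0.15, and for Col8a2 it was 0.13 ± 0.22. The smallest p of the other classes belonged to Col4a3 (0.66 ± 0.48) and Col5a3 (0.28 ± 0.46). The fits of these comparisons share groups, and double_het values rest on 8 libraries, because the set term fits the lone library of set 7 exactly.

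No basement membrane chain was called in a genotype comparison with edgeR, and at an unadjusted p under 0.05 there was 1 of 8 in Nipbl_het (beside 15.1% of all genes), in double_het against Isl1_het (7.49%) and in the averaged Nipbl comparison (14.9%). That gene was Col4a4, a chain of the network known from kidney glomeruli, whose low level was 0.201, 0.450 and 1.17 CPM in wild-type, 0.149, 0.566 and 0.732 in Isl1_het, 0.224, 0.382 and 0.719 in Nipbl_het and 0.151, 0.375 and 0.592 in double_het hearts. Its raw counts ran from 4 to 45. The averaged log2 change was -0.60 ± 0.19 (adjusted p = 0.069), and it passed without the library labelled Nipbl_het replicate 2, at -0.61 ± 0.19 (adjusted p = 0.0479). The abundant Col4a1, Col4a2 and Col18a1 had averaged changes of -0.13, -0.14 and 0.02.

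The library labelled Nipbl_het replicate 2 lay outside all other 36 libraries for 8 of the 40 members, and for 57.7% of all tested genes. It was below them for Col17a1, Col11a2, Col9a3, Col23a1, Col13a1 and Col26a1 and above them for Col16a1 and Col6a1. Without it, 5 of 38 collagens were called in Nipbl_het against wild-type beside 2.72% of all genes. They were Col6a2, Col13a1, Col23a1 and Col26a1, lower, and Col11a2, higher. In double_het against wild-type the count became 5 beside 5.57% of all genes, with Col8a2, Col11a2 and Col16a1 higher and Col13a1 and Col23a1 lower. In double_het against Isl1_het it became 4 beside 2.4%, all lower: Col6a2, Col13a1, Col23a1 and Col26a1. Averaged over both Isl1 genotypes it became 10 beside 6.93%, the 8 named above with Col8a2 (0.41 ± 0.10, adjusted p = 0.0107) and Col4a4.

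More collagens were called for the set number than in any genotype comparison: 28 of 38 (73.7%) beside 38.2% of all genes. These were 9 of 11 fibrillar, 7 of 8 basement membrane and 12 of 19 other chains. Col1a2 had the smallest p (adjusted p = 5.41e-06), before Col4a5, an X-linked basement membrane chain (adjusted p = 0.000116), and Col3a1 (adjusted p = 0.000136). Within wild-type hearts, set 1 lay apart: Col1a1 had 57.3 to 93.4 CPM in the 3 hearts of set 1 and 158 to 331 in the 7 of sets 2, 5 and 6. Col3a1 had 218 to 241 CPM against 285 to 436, and Col8a2 3.92 to 5.39 against 7.78 to 11.5. In all, 4 fibrillar chains (Col1a1, Col1a2, Col3a1 and Col5a2) and 7 others lay below every other wild-type heart (3.75% of all genes did), Col11a2 lay above (3.15%), and the 8 basement membrane chains overlapped. What set 1 differs in was not tested.

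The promoters of 2 genes that fell and 2 that rose are shown, as the windows of called members in both directions. Each is the 250 bases before the RefSeq gene start on GRCm38.p6, written 5′ to 3′ on the gene's strand, and capitals mark GGGCGG (the GC box), CCAAT and CAGGTG (an E-box) on either strand. The RefSeq table matched 31 of the 40 members with 34 windows. Windows of Col1a2, Col11a2 and Col13a1 and a second of Col6a2 are not printed, and Col1a1 and Col26a1 are given by name only.
Col23a1 (fell, chr11:51289670-51289919, + strand, 66.0% GC): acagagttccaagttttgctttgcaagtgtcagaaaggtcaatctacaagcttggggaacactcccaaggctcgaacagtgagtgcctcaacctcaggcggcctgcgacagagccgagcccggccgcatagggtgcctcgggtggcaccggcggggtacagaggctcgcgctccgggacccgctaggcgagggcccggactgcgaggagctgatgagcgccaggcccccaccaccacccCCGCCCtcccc
Col6a2 (fell, chr10:76623631-76623880, - strand, 59.2% GC): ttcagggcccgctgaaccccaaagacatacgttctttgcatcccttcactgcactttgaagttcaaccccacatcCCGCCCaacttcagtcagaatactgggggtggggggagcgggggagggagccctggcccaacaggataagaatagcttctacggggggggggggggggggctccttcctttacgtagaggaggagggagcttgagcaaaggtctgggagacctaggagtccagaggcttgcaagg
Col16a1 (rose, chr4:130047590-130047839, + strand, 75.6% GC): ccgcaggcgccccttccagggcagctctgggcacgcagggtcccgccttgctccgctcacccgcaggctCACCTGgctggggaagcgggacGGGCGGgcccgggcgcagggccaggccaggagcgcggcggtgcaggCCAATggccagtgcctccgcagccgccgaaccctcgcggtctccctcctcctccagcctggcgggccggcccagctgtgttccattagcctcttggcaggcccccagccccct
Col8a2 (rose, chr4:126286544-126286793, + strand, 70.0% GC): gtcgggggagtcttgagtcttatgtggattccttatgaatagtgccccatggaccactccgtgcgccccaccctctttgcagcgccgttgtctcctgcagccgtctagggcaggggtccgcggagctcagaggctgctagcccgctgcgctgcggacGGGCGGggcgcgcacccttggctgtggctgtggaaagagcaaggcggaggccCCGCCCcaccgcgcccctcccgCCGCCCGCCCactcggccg
GGGCGG or its reverse complement CCGCCC stood in all 4 windows, with 4 matches in Col8a2, and in 21 of the 34 collagen windows (61.8%) beside 32.7% of 32851 windows of the same length. CCAAT or ATTGG stood in Col16a1 alone of the 4, in 35.3% of collagen windows and 33.8% of all. CAGGTG or CACCTG also stood in Col16a1 alone, in 11.8% of collagen windows and 17.2% of all. TATAAA or TTTATA stood in none of the 4 and in 11.8% of collagen windows and 12.4% of all. Among the other called members with a window, Col13a1 (fell) held TATAAA and no GGGCGG, Col11a2 (rose) held both, and Col1a2 (fell) held GGGCGG and CCAAT. A second window of Col6a2 held GGGCGG 3 times. A match is a run of letters and not a bound site.

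On GRCm38, with GENCODE M21 annotation, the called genes lay on several chromosomes. Those that fell were Col1a1 (chr11:94936224-94953042, + strand), Col23a1 (chr11:51289920-51583918, + strand), Col1a2 (chr6:4504814-4541544, + strand), Col6a2 (chr10:76595762-76623630, - strand), Col13a1 (chr10:61838236-61979108, - strand) and Col26a1 (chr5:136741759-136883209, - strand). Those that rose were Col11a2 (chr17:34039437-34066685, + strand), Col16a1 (chr4:130047840-130099283, + strand) and Col8a2 (chr4:126286793-126314330, + strand). All are protein-coding, values are reads over their exons, and none of the 9 shares exon bases with another annotated gene.

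Chains that meet in one trimer were compared across libraries after genotype and set were removed from log2 CPM, over 36 libraries without the lone heart of set 7. Of 11 partner pairs, 7 passed an adjusted p of 0.05 over the 14 pairs computed (two-sided permutation test, 100000 resamples, smallest possible p 1e-05). Of the 3 pairs that share no trimer, 1 passed. The share among all gene pairs was not computed, so whether partners are coupled more than other genes was not tested. Col4a1 and Col4a2 moved most closely together, with Pearson's r = 0.98 and Spearman's rho = 0.97 (permutation p = 1e-05 for both, adjusted 2.8e-05 and 3.5e-05). Within sets 1, 2, 5 and 6 their r was 0.98, 0.98, 0.99 and 1.00, and 0.97 without the 2 libraries farthest from the median. Col4a5 and Col4a6 had r = 0.93 and rho = 0.84, Col6a1 and Col6a2 r = 0.83 and rho = 0.77, and Col1a1 and Col1a2 r = 0.77 and rho = 0.74, each at the same permutation p. Leaving out the 2 farthest libraries gave r = 0.89, 0.81 and 0.72 for these 3 pairs, and the r within sets ran from 0.90 to 0.98, 0.76 to 0.97 and 0.74 to 0.87. Col9a1 and Col9a2 (r = 0.68, rho = 0.61, permutation p = 1e-05 and 0.0001), Col9a2 and Col9a3 (r = 0.64, rho = 0.61, permutation p = 5e-05 and 0.00014) and Col5a1 and Col5a2 (r = 0.59, rho = 0.55, permutation p = 6e-05 and 0.00057) were looser. For these 3 pairs r without the 2 farthest libraries was 0.59, 0.62 and 0.69, and for Col5a1 and Col5a2 it fell to 0.36 within set 5.

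Other partners were not detectably coupled. Col8a1 and Col8a2 had r = -0.22 and rho = -0.27 (permutation p = 0.197 and 0.109, adjusted 0.276 and 0.152). Col11a1 and Col11a2 had r = 0.20 (permutation p = 0.24), Col6a1 and Col6a3 r = 0.14 (permutation p = 0.402) and the scarce Col4a3 and Col4a4 r = -0.00 (permutation p = 0.978), with rho of 0.15, 0.17 and -0.03 (permutation p = 0.392, 0.318 and 0.842). Among 3 pairs that share no trimer, Col1a1 and Col3a1 had r = 0.38 and rho = 0.47 (permutation p = 0.0239 and 0.00495, adjusted 0.0419 and 0.00866), with r = 0.31 without the 2 farthest libraries and -0.21 within set 1. Col1a1 had r = 0.33 with Col4a1 (permutation p = 0.052) and 0.15 with Col2a1 (permutation p = 0.382). The start sites of Col4a1 and Col4a2 lie 21 bases apart on opposite strands of chromosome 8, with 22 shared exon bases, those of Col4a3 and Col4a4 72 bases apart on chromosome 1 and those of Col4a5 and Col4a6 1309 bases apart on the X chromosome. Col4a3 and Col4a4, uncoupled here, were counted at no more than 45 reads of Col4a4 in a library. Whether the counting used strand is not given in the sources used here, so reads from the 22 shared bases cannot be told apart, nor those from 563 bases (5.65%) of Col4a3 and 234 bases (6.07%) of Col9a3 that overlap genes on the opposite strand.

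**Figure D4:**
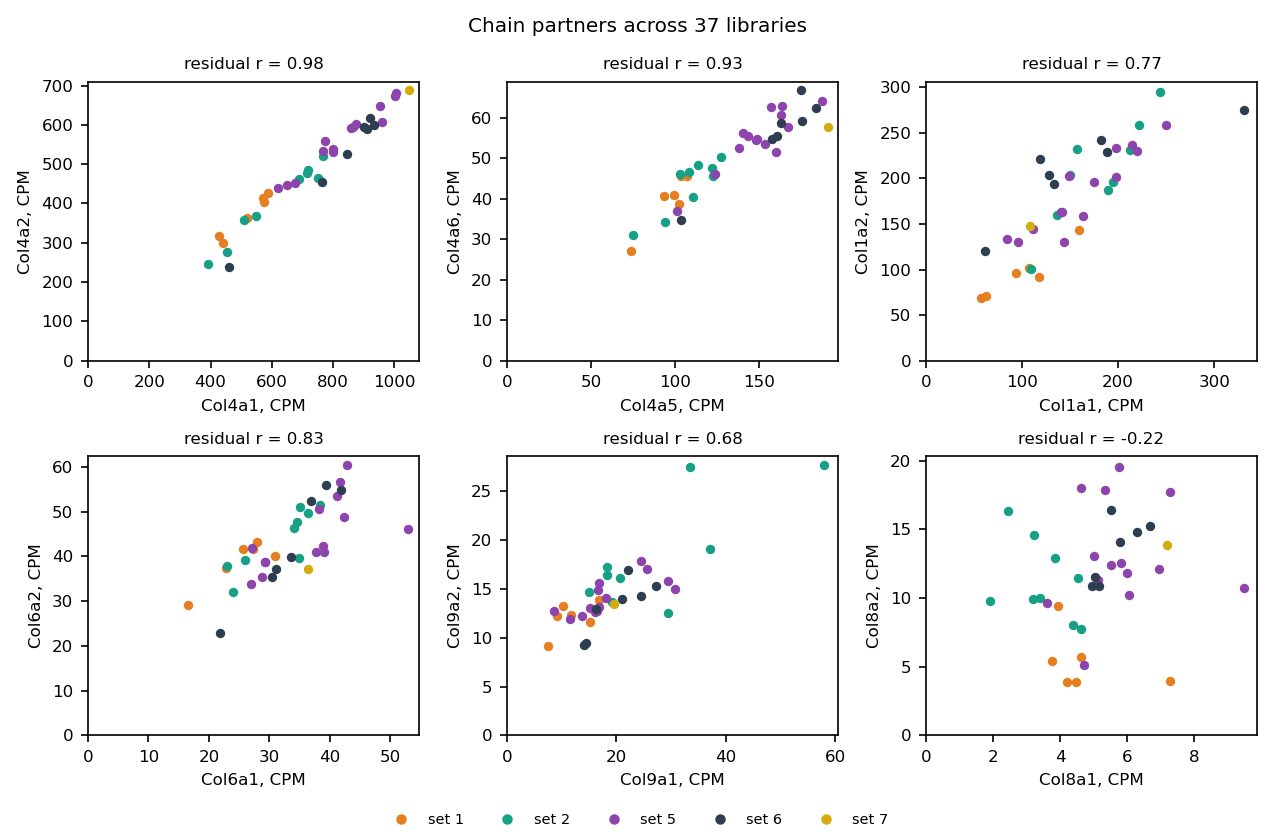
CPM of 6 pairs of collagen chains that share a trimer, 1 point per library for 37 libraries, coloured by set, with both axes from 0; r is Pearson's correlation after removal of genotype and set over 36 libraries. Points follow a line for Col4a1 with Col4a2 (r = 0.98) and Col4a5 with Col4a6 (r = 0.93) and scatter for Col8a1 with Col8a2 (r = -0.22).

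Of 34 biosynthesis genes, which make and mature collagen, all tested, 0 were called in Nipbl_het against wild-type (edgeR; smallest adjusted p 0.146), 2 in double_het against wild-type (5.88%, beside 2.6% of all genes), 1 in double_het against Isl1_het (2.94%, beside 0.957%) and 3 in the averaged Nipbl comparison (8.82%, beside 4.02%), all higher. P3h4, a member of the prolyl 3-hydroxylase family that acts with lysyl hydroxylase in the endoplasmic reticulum, rose by 0.22 ± 0.05 (log2, averaged; adjusted p = 0.00287). Tll1, a protease related to BMP1 that removes procollagen ends, rose by 0.45 ± 0.13 (adjusted p = 0.0341), and Pcolce, which enhances that cleavage, by 0.18 ± 0.05 (adjusted p = 0.0423). The median log2 change of the 34 was 0.05, beside 0.01 over all genes. Of 15 basement membrane partners, laminins, nidogens and heparan sulphate proteoglycans, 1 rose in the averaged comparison (6.67%, beside 4.02% of all genes): Lamb3, a chain of laminin 332, by 0.71 ± 0.12 (adjusted p = 0.000266). It had 2.61, 4.48 and 5.82 CPM in wild-type and 5.30, 7.07 and 9.51 in Nipbl_het hearts. Lamc3, the 1 of these 15 called in double_het against wild-type (beside 2.6% of all genes), rose there by 0.93 ± 0.25 (adjusted p = 0.0357). Of 10 collagen receptors, 1 was called in the averaged comparison (beside 4.02% of all genes) and 1 in double_het against wild-type (beside 2.6%). Both times it was Mrc2, which takes up collagen for degradation, rising by 0.27 ± 0.08 (adjusted p = 0.0423) and by 0.43 ± 0.11 (adjusted p = 0.0208). No gene of these 3 lists was called lower in a genotype comparison. In Isl1_het against wild-type none was called, and the smallest p among biosynthesis genes was that of Adamts2, a procollagen N-proteinase, at 0.76 ± 0.22 (adjusted p = 0.463).

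Marker genes of cell types that make collagen differed between genotypes beside these results. Of 7 epicardial markers, 5 were higher in double_het than in wild-type hearts (71.4%, beside 2.6% of all genes), 3 in the averaged Nipbl comparison (42.9%, beside 4.02%), 1 in Nipbl_het against wild-type (14.3%, beside 1.71%), 1 in double_het against Isl1_het (14.3%, beside 0.957%) and 1 for averaged Isl1 (14.3%, beside 0.173%). In double_het against wild-type Wt1 changed by 0.53 ± 0.08 (log2; adjusted p = 6.05e-05). The summed epicardial level was 261 to 463 CPM in wild-type, 307 to 553 in Isl1_het, 407 to 614 in Nipbl_het and 519 to 674 in double_het hearts, so that double_het and wild-type did not overlap, and none of the 7 markers was at 0 in most libraries. Of 9 cushion mesenchyme markers, 1 was called in a genotype comparison, double_het against wild-type (beside 2.6% of all genes). It was Pdgfra, higher by 0.43 ± 0.12 (adjusted p = 0.0483). The summed level of the 9 was 615 to 971 CPM in wild-type and 605 to 1173 in double_het hearts. Of 8 endothelial and endocardial and 8 cardiomyocyte markers none was called in a genotype comparison. Of 7 tested neuron and neural crest markers, 1 was called higher in the averaged Nipbl comparison (14.3%, beside 4.02%), Tubb3, a neuronal tubulin, at 0.49 ± 0.13 (adjusted p = 0.0234), and the 9 of the list summed to 41.1 to 74.3 CPM in wild-type, 41.8 to 65.2 in Isl1_het, 37.004 to 82.0 in Nipbl_het and 53.0 to 83.1 in double_het hearts. Of the 9 notochord, cartilage and sclerotome markers, 2 were tested. In the averaged Nipbl comparison 1 of them was called (beside 4.02% of all genes), while Matn3 was at 0.0029 ± 0.13. Acan, the cartilage proteoglycan that is also made in developing valves, fell by 1.39 ± 0.21 averaged over both Isl1 genotypes (adjusted p = 5.3e-05), from a median of 1.44 CPM in wild-type to 0.765 in Nipbl_het hearts. The summed red cell markers ran from 502 to 106530 CPM over the libraries, and adding their mean log2 level to the fit gave 7 collagens called in the averaged comparison. Of the 8 called without it, 5 were among these 7: Col1a2, Col11a2 and Col16a1 were lost, and Col8a2, higher, and Col4a4, lower, were gained. The part of these cell types in the collagen changes was not tested.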

How the data were processed

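The authors deposited raw read counts per gene symbol for 37 heart libraries. Per the submitters' processing notes, STAR and featureCounts were named with the builds GRCm38 and mm10. The annotation and strand setting are not given in the sources used here. The table held 25239 genes and 0 other columns of values. Collagen members and gene lists were chosen with earlier results of these data known.

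Counts were fitted with edgeR 4.0.16 (quasi-likelihood test, TMM scaling, R 4.3.3, limma 3.58.1) with genotype and set number as factors over all 37 libraries. The low-count filter (filterByExpr, minimum count 10, minimum total 15) left 15046 genes, with Benjamini-Hochberg adjustment across them. CPM used TMM library sizes, and log2 CPM a prior count of 2. Lengths came from GENCODE M21. On simulated counts for 15046 genes, Nipbl_het against wild-type recovered 49.3%, 85.1% and 98.5% of genes changed by 0.5, 1 and 2 on the log2 scale. It also called 11 unchanged genes. The counts were drawn independently for each gene, without an outlying library. Correlations and plots used Python 3.11.15 with scipy 1.17.1 and matplotlib 3.10.9.

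Depth per library, 23356831 to 50974736 counts, limits precision mainly for chains with few reads. No 2 libraries of a genotype agreed within sampling noise (153 pairs, smallest chi-square per degree of freedom 7.46). The labels do not say that replicates came from separate litters, so p-values measure the spread between these samples. Genes were named when called in a comparison, when among the 3 highest of a class, as partners of such genes, or with the smallest p of a class. Alternatives were DESeq2 1.42.0, its size factors, other filters, no set term, a replicate block, a red cell covariate, and leaving out each set and each library.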

Additional observations from a re-analysis of the deposited data

Results flagged for a closer look

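Of 36 groups examined (9 called collagens in 4 genotypes), 3 held a library far from the others, where chance gives about 5%. Col13a1 was lowest in the library labelled Nipbl_het replicate 2, at 10.7 CPM, with the next of the 9 at 29.1. Col1a1 was highest in wild-type replicate 6, at 331 CPM, with the next of the 10 at 198, and without that library the averaged Nipbl change of Col1a1 was -0.55 in place of -0.65. Col6a2 was highest in double_het replicate 4, at 48.9 CPM, with the next of the 9 at 42.4.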

How the results depend on the processing

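For the 9 called collagens in the 4 comparisons of Nipbl loss, 15 changes were called and 21 were not. Under alternatives these 15 gave 720 values, of which 188 (26.1%) lost the call and none changed sign: 122 of 555 with 1 library left out and 66 of 165 under the other settings. The 21 uncalled changes gave 1008 values, of which 20 gained a call and 4 changed sign. All 4 were Col1a2: 0.0146 with the replicate block in Nipbl_het against wild-type, and in double_het against wild-type 0.0890 without the set term, 0.25 with the replicate block and 0.0053 without set 6. The causes were not tested. Elsewhere the sign changed for 1 of the 9 in Isl1_het against wild-type, 2 in double_het against Nipbl_het, 7 in the interaction and 1 for averaged Isl1, none of them called.

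Leaving out 1 library at a time gave 2 to 5 collagens and 167 to 410 genes called in Nipbl_het against wild-type, 1 to 5 and 244 to 839 in double_het against wild-type, 0 to 4 and 73 to 361 in double_het against Isl1_het, 4 to 10 and 436 to 1044 for averaged Nipbl, 0 to 1 and 4 to 73 for averaged Isl1, and 0 to 0 and 0 to 2 in Isl1_het against wild-type. Double_het against Nipbl_het and the interaction stayed at 0.

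Collagen counts moved as follows. For Nipbl_het against wild-type there were 0 without the set term, 1 with the replicate block (Col16a1, higher, and none of the 3 first called), and 1 each without set 2, 5 or 6. Double_het against wild-type gave 1, 0, 0 and 1 without sets 1, 2, 5 and 6. Double_het against Isl1_het gave 0 without the set term, 1 with the replicate block (Col8a2, higher, and neither of those first called), 4 with DESeq2, 1 without a filter and 0 without any of the 4 sets. Averaged Nipbl gave 5 without the set term and 5 with the replicate block, each sharing 3 of the 8 first called and adding Col8a2 and Col27a1, and 4, 1 and 4 without sets 2, 5 and 6.

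Genes called, with the main count first, were 258 in Nipbl_het against wild-type (467 without the set term, 459 with DESeq2, 118, 31 and 124 without sets 1, 2 and 5). Double_het against wild-type had 391 (610 with the replicate block, 235, 113, 67 and 223 without sets 1, 2, 5 and 6). Double_het against Isl1_het had 144 (234 with DESeq2, 74, 22, 12 and 80 without sets 1, 2, 5 and 6). Averaged Nipbl had 605 (1045 without the set term, 993 with the replicate block, 152, 275 and 401 without sets 2, 5 and 6). Averaged Isl1 had 26 (0 without the set term, 9 with the replicate block, 113 with DESeq2, 0 with the red cell covariate, 0, 0, 0 and 7 without sets 1, 2, 5 and 6). Isl1_het against wild-type had 0 (11 with DESeq2).

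Replicate numbers did not pair the samples: over 54 same-numbered pairs the median correlation was 0.0279 (-0.449 to 0.554), 17 exceeded 0.1, and 3 of 37 libraries correlated best with their own number. Leaving out a set removes up to 14 libraries, so fewer samples enter those fits.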
